A study of Mus musculus with 4 samples.

Results

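The 10 genes described here encode proteins that neutrophils carry in their granules or cytosol: Mpo, Prtn3, Elane and Ctsg of the primary (azurophil) granules, Ltf, Camp, Ngp and Lcn2 of the secondary (specific) granules, and S100a8 and S100a9 of the cytosol. They were taken by name, as every probe set of the array table annotated to one of these genes and to no other. The genes were chosen with earlier results of these data known. Each of the 10 genes had 1 such probe set, so 10 of 34945 one-gene probe sets and 10 of 18193 genes are described. The arrays hold RNA of mouse bone marrow cells that had grown for 5 days in M-CSF, the factor that drives macrophage differentiation. Their 4 groups of 1 array each were Jmjd3-/- cells (called knockout) with LPS, Jmjd3-/- cells unstimulated, wild-type cells with LPS, and wild-type cells unstimulated. LPS, a bacterial cell wall component sensed by Toll-like receptor 4, was given at 100 ng/ml for 4 h. The Kdm6b gene encodes Jmjd3, an enzyme that takes methyl groups off lysine 27 of histone H3. The sources used here do not give strain, age, the deleted part of the gene or whether animals were pooled, and cultures of whole bone marrow can keep cells other than macrophages.

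Neutrophils make their granule proteins in sequence while they mature in the bone marrow. Primary granule proteins are made first, at the promyelocyte stage, and secondary granule proteins later, at the myelocyte and metamyelocyte stages. Their mRNAs are largely gone from mature neutrophils and are low in resting macrophages, while Lcn2 is also known as a gene that macrophages switch on after LPS. S100a8 and S100a9 form calprotectin, the most abundant cytosolic protein of neutrophils, and are made by monocytes as well.

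All values are log2 RMA intensities, a normalized brightness of a probe set, and differences are on that scale. With 1 array a group, a difference between 2 arrays has no replicate check and no p-value. A gene was counted as higher or lower at 2-fold or more, provided that the brighter of the arrays compared reached log2 6, the level used as a floor. Readings under the floor are close to background, so the size of a difference against them is uncertain. The medians of the 4 arrays ran from 4.15 to 4.24, and 32.1% to 34.5% of an array's probe sets reached the floor. Of 13 macrophage markers, including Csf1r, Adgre1 and Cd68, at least 12 reached the floor on every array. The brightest Kdm6b probe set read 10.82 with LPS and 9.82 unstimulated in knockout cells, against 11.23 and 10.33 in wild type. A dimmer one read 6.07 and 5.35 in knockout cells, against 5.22 and 4.71 in wild type, and another was under the floor on all 4 arrays. Whether they lie in the deleted part is not known, so they do not check the labels.

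All 10 genes were higher in knockout than in wild-type cells in both states. Without LPS the differences ran from 2.81 for Ctsg to 7.94 for Ngp, with a median of 6.02, against 0.00 over all genes. In knockout cells 4.74% of all genes lay at least 2-fold above wild type and 2.85% at least 2-fold below, or 9.54% and 5.74% of the genes at or above the floor. With LPS the differences ran from 1.48 for Lcn2 to 7.62 for Ngp, with a median of 5.39, against 0.00 over all genes. There 4.63% of all genes were higher and 2.68% lower, or 9.76% and 5.65% of the genes at or above the floor. In each of the 10 genes both knockout arrays read higher than both wild-type arrays. In bulk RNA such as this, more cells of a type and more RNA per cell cannot be told apart.

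**Figure D1:**
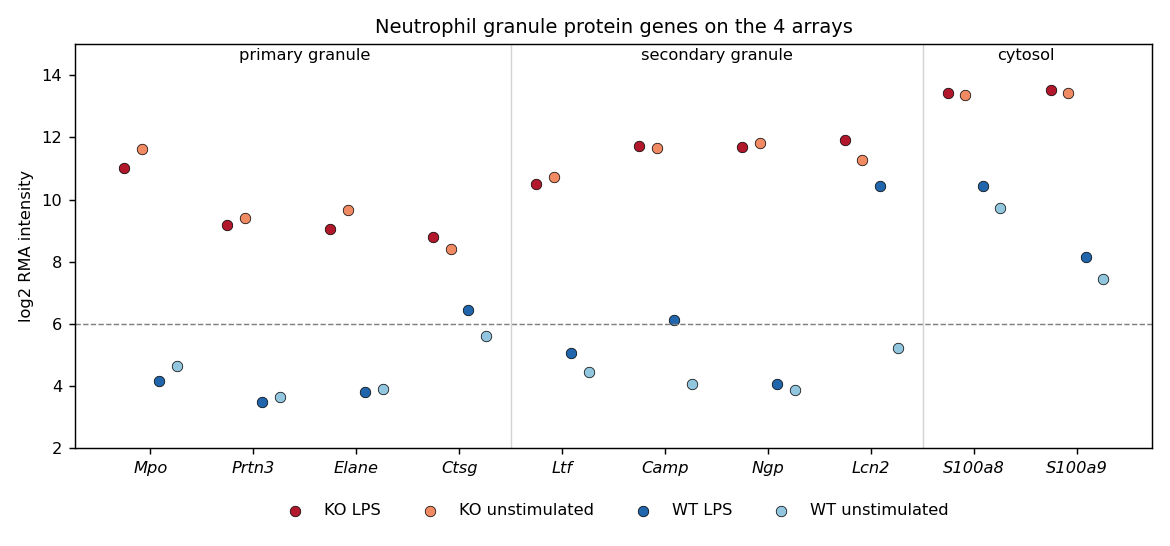
Level of each gene (log2 RMA intensity, vertical axis) on the 4 arrays, 1 point an array (KO, knockout; WT, wild type), ordered by where the protein is stored. The dashed line is the floor of log2 6. In every gene both knockout points lie above both wild-type points, and Lcn2 in wild type with LPS (10.42) comes nearest to them.

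Among the primary granule genes, Mpo encodes myeloperoxidase, which makes hypochlorous acid from hydrogen peroxide. It read 11.02 with LPS and 11.64 unstimulated in knockout cells, against 4.16 with LPS and 4.65 unstimulated in wild type, both of these under the floor. Mpo was thus higher in knockout cells by 6.86 with LPS and by 7.00 without, rank 3 of 18193 genes in both comparisons. Prtn3, the gene of the serine protease proteinase 3, read 9.19 with LPS and 9.42 unstimulated in knockout cells, against 3.49 and 3.64 in wild type. Elane, the neutrophil elastase gene, read 9.05 with LPS and 9.66 unstimulated in knockout cells, against 3.80 and 3.90 in wild type. These 2 protease genes lie next to each other on chromosome 10 and differed by similar amounts, Prtn3 by 5.70 with LPS and 5.78 without, Elane by 5.25 and 5.76. Ctsg, the gene of cathepsin G, another granule serine protease, read 8.80 with LPS and 8.41 unstimulated in knockout cells, against 6.44 with LPS and 5.60 unstimulated in wild type. It had the smallest unstimulated difference of the 10 genes (2.81), and its wild-type array with LPS was above the floor.

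The 250 bases before the start of the primary granule genes are shown because these genes differed together and each of the 4 stretches holds the same 7 letters. They are RefSeq sequence of build GRCm38.p6, read along the gene's strand. Capitals mark AGGAAGT, a core bound by ETS factors such as PU.1. These letters and those of the 3 other motifs below were chosen after the sequences had been seen.
Mpo, chr11:87793534-87793783, plus strand: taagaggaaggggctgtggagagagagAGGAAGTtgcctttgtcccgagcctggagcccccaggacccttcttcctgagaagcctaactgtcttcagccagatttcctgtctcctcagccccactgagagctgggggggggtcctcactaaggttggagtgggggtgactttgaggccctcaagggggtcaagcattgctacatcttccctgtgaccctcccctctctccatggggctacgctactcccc
Prtn3, chr10:79879417-79879666, plus strand: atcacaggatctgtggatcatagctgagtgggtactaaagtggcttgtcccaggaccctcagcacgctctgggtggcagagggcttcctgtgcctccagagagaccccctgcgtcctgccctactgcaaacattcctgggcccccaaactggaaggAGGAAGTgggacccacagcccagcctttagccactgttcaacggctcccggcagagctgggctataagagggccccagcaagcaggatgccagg
Elane, chr10:79886062-79886311, plus strand: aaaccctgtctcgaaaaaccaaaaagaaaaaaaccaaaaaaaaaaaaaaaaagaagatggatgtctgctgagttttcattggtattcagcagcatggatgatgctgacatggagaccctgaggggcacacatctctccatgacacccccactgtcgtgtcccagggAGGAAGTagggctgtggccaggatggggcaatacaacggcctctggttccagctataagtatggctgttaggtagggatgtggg
Ctsg, chr14:56102575-56102824, minus strand: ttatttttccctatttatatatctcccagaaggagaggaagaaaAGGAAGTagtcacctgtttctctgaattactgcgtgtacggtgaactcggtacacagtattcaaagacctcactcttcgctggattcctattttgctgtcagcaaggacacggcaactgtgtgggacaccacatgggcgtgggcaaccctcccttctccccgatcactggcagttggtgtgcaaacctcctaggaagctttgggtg

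The match began 94 bases before the start in Prtn3 and 84 in Elane, and 223 in Mpo and 206 in Ctsg. Searched on both strands, AGGAAGT was in the same stretch of 5 of the 10 genes, S100a8 being the fifth. It was in 7.69% of 32851 promoters and in 7.47% of the 18109 promoters of measured genes. AACGG, a core bound by Myb, was in Prtn3 and Elane, 55 and 50 bases before the start. That is 2 of the 10 genes, near its share of 14.5% of all promoters and 17.4% of those of measured genes. The motif hits are matches of letters, not measured sites.

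The secondary granule genes differed by 6.05 to 7.94 without LPS. Ngp encodes neutrophilic granule protein, a relative of the cathelicidins, and read 11.68 with LPS and 11.82 unstimulated in knockout cells, against 4.06 and 3.87 in wild type. Its difference of 7.62 with LPS and 7.94 without had rank 1 of 18193 genes in both states, taken against wild-type readings under the floor. With 64 added to the linear values it was 5.54 without LPS, against 5.56 for S100a9. Camp, the gene of the antimicrobial cathelicidin CRAMP, read 11.73 with LPS and 11.66 unstimulated in knockout cells, against 6.13 with LPS and 4.08 unstimulated in wild type. Its difference was 5.60 with LPS (rank 12) and 7.58 without (rank 2). Ltf, the gene of the iron-binding protein lactoferrin, read 10.51 with LPS and 10.72 unstimulated in knockout cells, against 5.08 and 4.45 in wild type. In these 3 genes the knockout arrays stayed within 0.21 of each other, and the only wild-type reading above the floor was that of Camp with LPS.

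Lcn2 encodes lipocalin 2, which binds bacterial siderophores and so withholds iron from bacteria. It read 11.90 with LPS and 11.27 unstimulated in knockout cells, against 10.42 with LPS and 5.22 unstimulated in wild type. Of its 4 arrays 3 were high and only unstimulated wild type was low. Its difference between genotypes was 6.05 without LPS (rank 12) and 1.48 with LPS (rank 683), a fold of 2.78.

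The stretches of Ngp and Lcn2 are shown as the secondary granule genes with the highest and the lowest difference with LPS. Capitals mark TTNNGCAA on either strand, a form of the site bound by C/EBP factors.
Ngp, chr9:110419558-110419807, plus strand: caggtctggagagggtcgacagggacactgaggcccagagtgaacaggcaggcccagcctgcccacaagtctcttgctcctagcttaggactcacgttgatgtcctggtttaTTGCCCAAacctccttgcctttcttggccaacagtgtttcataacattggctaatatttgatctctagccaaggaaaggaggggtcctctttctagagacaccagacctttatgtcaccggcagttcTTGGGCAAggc
Lcn2, chr2:32387740-32387989, minus strand: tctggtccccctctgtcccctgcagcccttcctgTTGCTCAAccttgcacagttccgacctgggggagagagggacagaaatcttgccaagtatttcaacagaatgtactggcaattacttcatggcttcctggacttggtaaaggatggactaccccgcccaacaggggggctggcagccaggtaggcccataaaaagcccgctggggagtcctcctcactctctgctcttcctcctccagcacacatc

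TTNNGCAA was in the stretches of Ngp, Ltf, Lcn2 and S100a9, 4 of the 10 genes. It was in 9.56% of the 32851 promoters and in 8.34% of those of measured genes. In Ltf it read TTGGGCAA, the same letters as the match nearer the start in Ngp. Camp had none of the 4 motifs searched, the fourth being TATAAA, which was in Ctsg and S100a8. TATAAA was in 12.4% of all promoters and in 8.81% of those of measured genes. The TATAAA match began 237 bases before the start in Ctsg, on the opposite strand, and 30 bases before it in S100a8.

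The cytosolic pair was above the floor in wild-type cells too, on both arrays. S100a8 read 13.41 with LPS and 13.35 unstimulated in knockout cells, against 10.42 with LPS and 9.73 unstimulated in wild type. S100a9 read 13.51 with LPS and 13.44 unstimulated in knockout cells, against 8.15 and 7.44 in wild type. All 8 readings were above the floor, whereas each of the other 8 genes had a wild-type reading under it. S100a8 was higher in knockout cells by 2.99 with LPS and 3.63 without, and S100a9 by 5.36 with LPS, a fold of 41.1, and by a fold of 64 without.

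**Figure D2:**
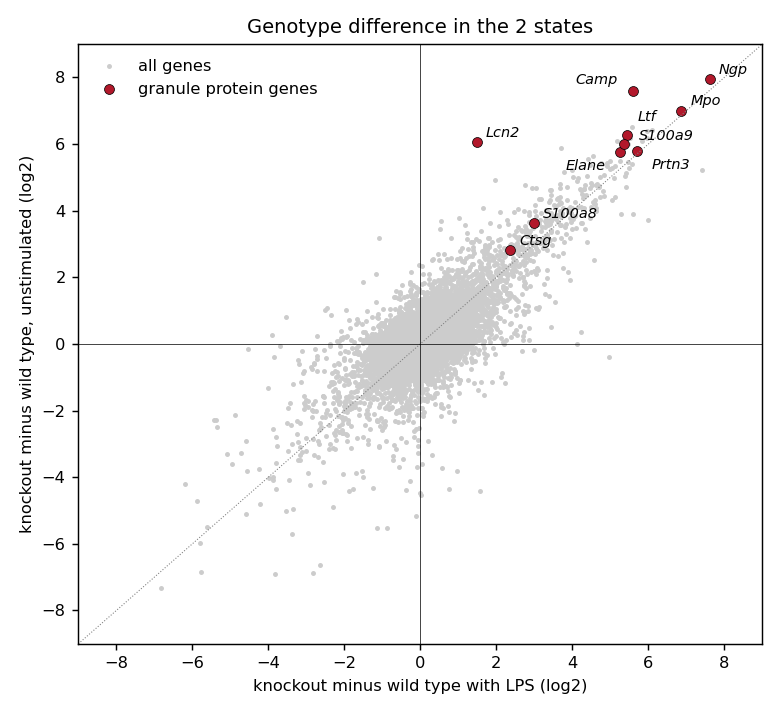
Knockout minus wild type difference (log2) with LPS (horizontal) and unstimulated (vertical), grey for all 18193 genes and red for the 10 granule protein genes; the dotted line marks equal differences. All 10 lie in the upper right, Ngp at 7.62 and 7.94, and Lcn2 stands above the line at 1.48 and 6.05.

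The genotype effect over both states was tested with limma in an additive model of genotype and LPS over all 34945 one-gene probe sets, with no filter on level. Of the 10 genes 9 rose in knockout cells and none fell. Over all probe sets 3.54% rose and 1.75% fell. As the genes were chosen with earlier results of these data known, this contrast describes them and is not independent support. Ngp rose by 7.78 (standard error 0.22, adjusted p = 8.05e-05 by limma) and was higher in both states. Mpo rose by 6.93, Camp by 6.59, Ltf by 5.85, Prtn3 by 5.74, S100a9 by 5.68, Elane by 5.50, S100a8 by 3.31 and Ctsg by 2.58. Camp had the largest standard error of these 9 genes, 0.43, and Ctsg the highest adjusted p (limma, 0.00158). Lcn2 was at 3.76 (standard error 0.89), higher in both states, and missed the threshold of 0.05 with an adjusted p of 0.0659 by limma.

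The model has 1 residual degree of freedom: its error comes from how far the LPS difference in knockout cells departs from that in wild type, shrunk toward a trend over all probe sets. A gene whose LPS difference is unlike in the 2 genotypes, as that of Lcn2 was, therefore has a large error. In Mpo, Prtn3, Elane, Ltf and Ngp both wild-type readings were under the floor. The standard errors and p-values of these genes thus rest in part on background readings. Lcn2 passed with the arrays quantile normalized again (limma, adjusted p = 0.0376, and up to 0.891 over the alternatives). Ctsg did not pass with the LPS term left out (limma, adjusted p = 0.154, and down to 0.00105 over the alternatives).

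In knockout cells LPS moved none of these genes past 2-fold. There the LPS differences lay between -0.63 for Mpo and 0.63 for Lcn2, with a median of -0.04, against -0.05 over all genes. Over all genes 5.53% were 2-fold or more higher with LPS in knockout cells and 7.78% lower, or 11% and 15.5% of the genes at or above the floor. In wild-type cells Lcn2 was higher by 5.20, a fold of 36.7 and rank 16 of 18193, and Camp by 2.06. These were the 2 of 10 genes past 2-fold upward, with none downward, against 4.68% higher and 6.78% lower over all genes, or 9.86% and 14.3% of the genes at or above the floor. Only 5 of the 10 genes reached the floor on a wild-type array, so the rest could not be counted there. Camp reached 6.13 with LPS in wild type, just above the floor, and with 64 added to the linear values its LPS difference was 0.73.

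The other 8 genes had LPS differences between -0.49 for Mpo and 0.84 for Ctsg in wild-type cells. S100a8 and S100a9 were alike in this, with 0.69 and 0.71 in wild type and 0.06 and 0.07 in knockout cells. In knockout cells the primary granule genes Mpo, Prtn3 and Elane differed with LPS by -0.63, -0.23 and -0.61, all within 2-fold. Their wild-type readings were all under the floor, so no LPS direction is read from them.

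**Figure D3:**
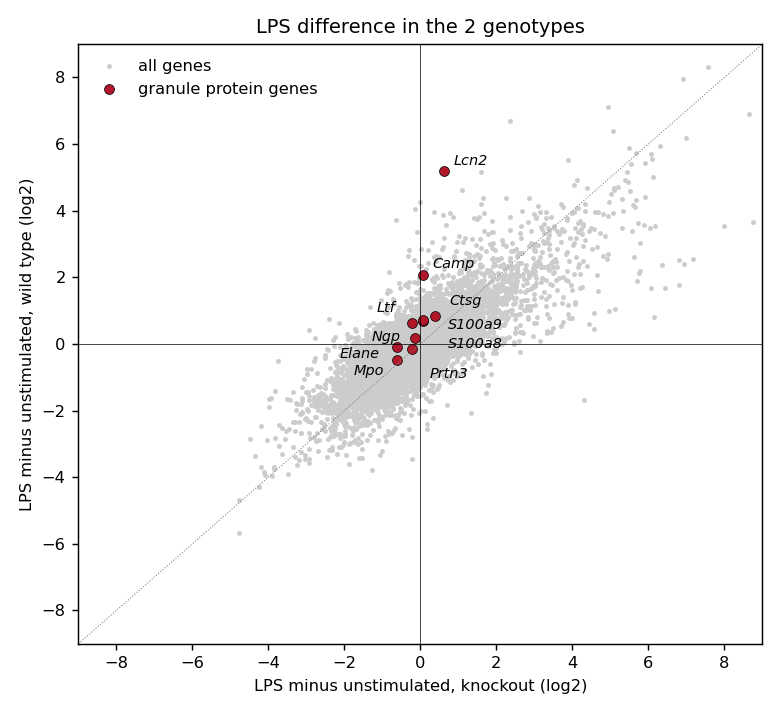
LPS minus unstimulated difference (log2) in knockout (horizontal) and wild-type cells (vertical), grey for all 18193 genes and red for the 10 granule protein genes; the dotted line marks equal differences. Lcn2 stands apart at 0.63 and 5.20, Camp lies at 0.07 and 2.06, and the others lie within 2-fold in both genotypes.

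Knockout minus wild type, the LPS differences of all 10 genes were below 0, from -0.08 for Prtn3 to -4.57 for Lcn2, with a median of -0.57, against -0.03 over all genes. In Mpo, Prtn3, Elane, Ltf and Ngp both wild-type readings were under the floor, and in Ctsg, Camp and Lcn2 the unstimulated one was, so the sign and the median rest in part on background readings. The value for Lcn2 was the lowest of 18193 genes. Camp was at -1.98, rank 87 from the lowest, and with 64 added to the linear values at -0.66, within 2-fold. As measured, Lcn2 and Camp were the 2 genes past 2-fold, against 2.44% of all genes in that direction and 2.68% in the other, or 4.73% and 5.19% of the genes at or above the floor. Each value uses all 4 arrays once, so no error could be attached to it. The comparisons of genotype and of LPS share arrays and are not independent of one another.

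No granule protein gene passed for LPS over both genotypes in limma, where 6.28% of all probe sets rose and 8.35% fell. At an unadjusted p below 0.05 there were 4 of the 10 genes (Mpo, Ctsg, Camp and Lcn2) and 30.2% of all probe sets. Lcn2 was at 2.91 (standard error 0.89, adjusted p = 0.0747 by limma) and Camp at 1.07 (standard error 0.43, adjusted p = 0.15). Mpo was at -0.56, Elane at -0.36 and Prtn3 at -0.19, and the remaining genes lay between 0.03 and 0.61.

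**Figure D4:**
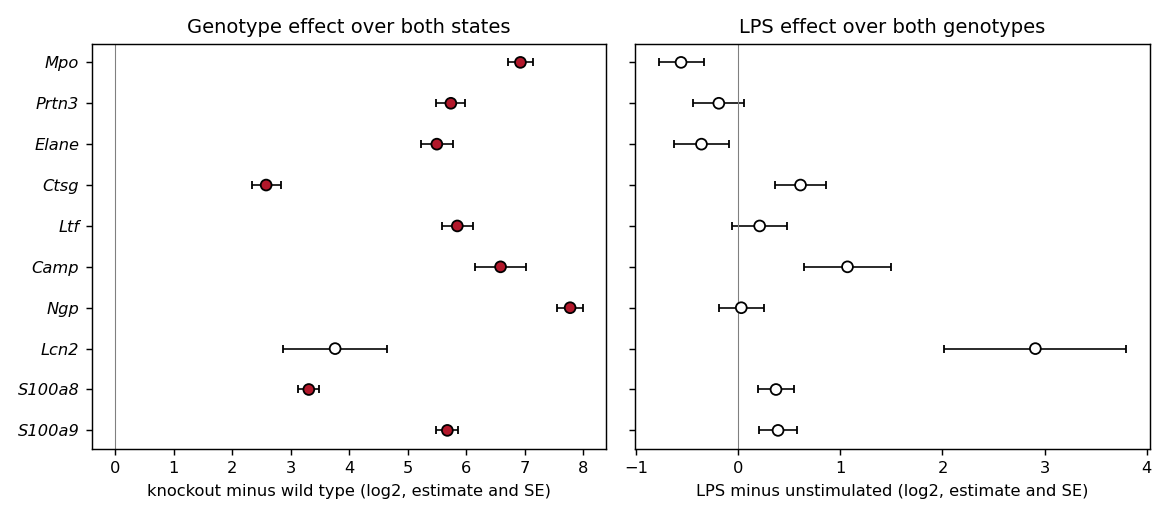
Effects of genotype (left, knockout minus wild type) and of LPS (right, LPS minus unstimulated) for each gene, as the limma estimate on the log2 scale with its standard error as a bar, from all 4 arrays. Filled points passed at an adjusted p below 0.05: 9 of 10 for genotype, the exception being Lcn2, and 0 of 10 for LPS.

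Further genes of granulocytes were examined from lists. Of 19 measured genes of other granule or effector proteins 7 rose in knockout cells, 2 fell and 10 did not pass (limma, median 0.37, against -0.02 over all probe sets). Chil1 rose by 4.75 and Fcnb, the ficolin B gene, by 4.74, with Olfm4, a marker of a subset of neutrophils, at 4.30 and Pglyrp1, a peptidoglycan-binding granule protein gene, at 3.82. Cd177 (3.08), Padi4 (2.53) and Itgb2l (1.17, under the floor on all 4 arrays) rose too. Cd177 and Padi4 were above the floor only in knockout cells, at 6.19 to 6.93. Mmp8, the neutrophil collagenase gene, fell by 2.92, reading 7.14 with LPS and 8.71 unstimulated in knockout cells, against 10.55 and 11.14 in wild type. Stfa3 was under the floor on all arrays and fell by 1.15. Lyz2, the lysozyme gene shared by macrophages and neutrophils, read between 13.60 and 13.98 on the 4 arrays.

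Serpinb1a, which encodes an inhibitor of the granule proteases, was, like Lcn2, under the floor only in unstimulated wild-type cells. It read 7.60 on both knockout arrays, against 8.69 with LPS and 4.43 unstimulated in wild type. Its LPS difference was thus -0.01 in knockout and 4.26 in wild-type cells. It was named after its values were seen.

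Of 6 measured receptor genes of mature neutrophils none rose in knockout cells and 2 fell (limma), Il1r2, a decoy receptor for interleukin 1, by 3.13 and Trem1 by 1.89. Cxcr2, the chemokine receptor of mature neutrophils, was under the floor on every array, at 3.76 and 4.00 in knockout cells with and without LPS, against 3.78 and 3.65 in wild type. Csf3r, the G-CSF receptor gene, read 8.08 with LPS and 8.12 unstimulated in knockout cells, against 7.94 and 7.38 in wild type.

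Of 11 progenitor and promyelocyte markers 4 rose in knockout cells, none fell and 7 did not pass (limma, median 0.50). Ms4a3, a marker of granulocyte-monocyte progenitors, rose by 4.17. It read 9.02 with LPS and 8.74 unstimulated in knockout cells, against 4.94 and 4.47 in wild type. Myb, a transcription factor gene of immature blood cells, rose by 2.69, Cd34 by 2.50 and Sox4 by 2.41, while Kit and Flt3 were under the floor on all 4 arrays. Cd34 was above the floor only in unstimulated knockout cells, at 6.66. Some of the 7 that did not pass lay the other way. Clec5a was at -0.82, reading 9.25 with LPS and 8.40 unstimulated in knockout cells, against 9.70 and 9.59 in wild type. Cd33, under the floor on all 4 arrays, was at -1.02. Of 10 granulocyte lineage transcription factor genes Myb alone rose in knockout cells and none fell (limma). Spi1, the PU.1 gene, read 9.82 with LPS and 9.45 unstimulated in knockout cells, against 9.98 and 9.84 in wild type. Gfi1, a factor needed for granulocytes, read 6.42 and 5.59 in knockout cells, against 5.86 and 4.01 in wild type.

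Markers of other cell types also differed with genotype beside the granule genes. Of 15 stromal markers 12 rose in knockout cells and 1, Thy1, fell (limma, median 5.24), with Has2 at 6.26, Col3a1 at 6.17 and Col1a1 at 6.04. Of 13 eosinophil, basophil and mast cell markers 2 rose, Prg2 by 4.91 and Ccr3 by 2.06 (under the floor on all 4 arrays), and 5 fell. Among these, Cpa3 fell by 2.60. Epx, the eosinophil peroxidase gene, was under the floor on all 4 arrays. Of 16 cell cycle genes 4 rose and none fell, and of 13 macrophage markers 2 rose and 1 fell. Of 5 monocyte markers F13a1 rose by 2.31, while Chil3 fell by 0.98 and Fn1 fell by 0.69. Of 10 T, B and NK cell markers the immunoglobulin gene Ighm rose by 2.67, while the T cell receptor complex genes Cd3g and Cd3e fell by 3.33 and 3.06. Of 9 erythroid and megakaryocyte markers Ppbp alone passed and fell by 2.09. No stromal marker passed for LPS (limma, 0 of 15).

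In summed linear intensity the 10 granule protein genes reached 38107 with LPS and 37616 unstimulated in knockout cells, against 3269 and 1213 in wild type. Such a sum mostly follows its brightest genes. On both knockout arrays these were the cytosolic S100a8 and S100a9. In wild type they were S100a8 and Lcn2 with LPS (10.42 each in log2) and S100a8 unstimulated (9.73). The stromal list summed to 26500 and 31564 in knockout cells, against 938 and 757 in wild type, and the progenitor list to 2768 and 2361 against 1266 and 1252. Macrophage markers summed to between 42452 and 43858 in knockout cells, against 37032 to 39025 in wild type. The part of these other cell types in the result was not tested.

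**Figure D5:**
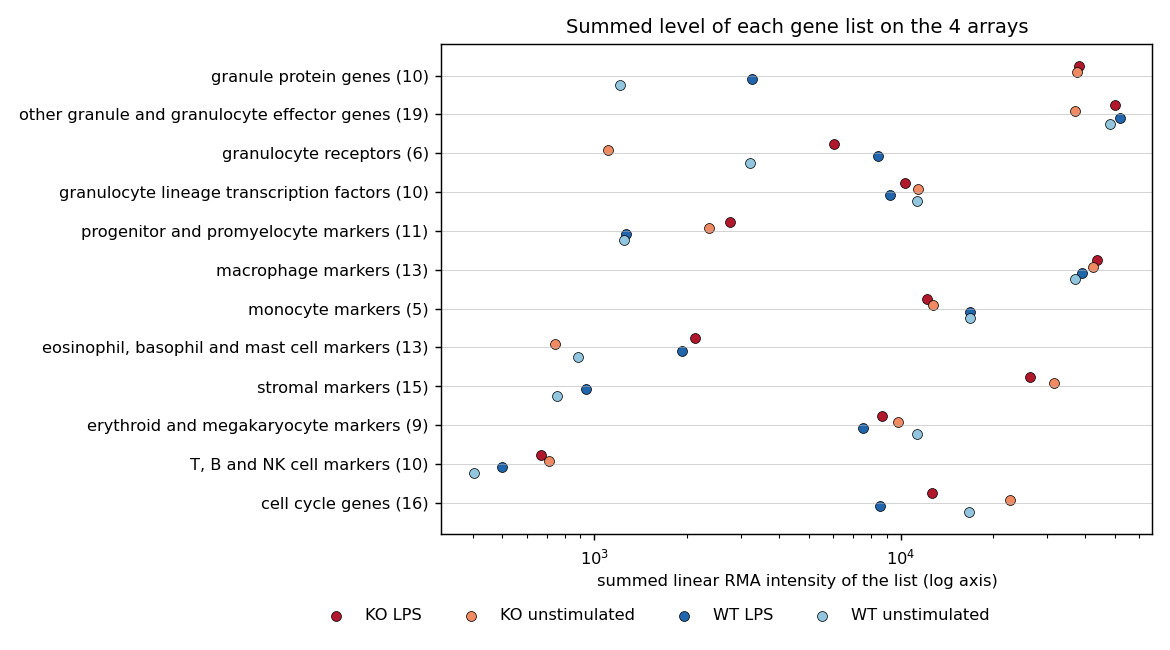
Summed linear RMA intensity of the measured genes of each list (log axis; number of genes in brackets), 1 point an array. Granule protein genes and stromal markers are far higher on both knockout arrays (38107 and 37616, and 26500 and 31564) than on the wild-type arrays, while the macrophage marker sums lie between 37032 and 43858 on all 4.

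The genes most like a member were found by the root mean square difference between profiles over the 4 arrays, after each gene's own mean was removed, among 9385 genes at the floor. With 4 arrays many genes share a shape. Nearest to Mpo were Myl9 (0.43), Ngp (0.52), Has2 (0.55), Col1a1 (0.56) and Col3a1 (0.58), so that 4 of the 5 were stromal markers of the list above. Nearest to Ngp were Mpo (0.52), Has2 (0.77), Col3a1 (0.82), Col1a1 (0.88) and Camp (0.89). S100a8 lay closest to Tgfb3 (0.12), Bicc1 (0.14), Ccn2 (0.16), Cd72 (0.17) and Slit2 (0.17). Nearest to Lcn2 were Adamts4 (0.86), Lif (0.92), Phldb2 (0.98), Tnc (1.04) and Tpbg (1.16).

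The nearest measured protein-coding genes on each side of the members were also read. Beside Mpo on chromosome 11, Tspoap1 and Lpo were under the floor on all 4 arrays, with Tspoap1 differing by 0.40 with LPS and 1.35 without. Beside Lcn2 on chromosome 2, 1110008P14Rik differed by -0.75 with LPS and -0.26 without, and Ptges2 by -0.15 and 0.05. Camp, Ngp and Ltf are all on chromosome 9 but are not adjacent, and of their 6 nearest measured protein-coding neighbours none differed by more than 0.57 between genotypes in either state. On chromosome 10 the outer neighbours of the Prtn3 and Elane pair, Plppr3 and Med16, differed by -0.09 and 0.55 with LPS and by 0.16 and 0.52 without. Beside Ctsg on chromosome 14, the granzyme gene Gzme was higher in knockout cells by 5.66 with LPS and 5.70 without, whereas Mcpt8, a basophil protease gene on the other side, differed by -2.56 and -1.57. On chromosome 3 S100a6, next to S100a8, differed by 1.02 with LPS and 1.01 without, and S100a7l2 on the far side of S100a9 was under the floor.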

How the data were processed

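Total RNA of 4 samples of mouse macrophages, 1 for each genotype and state, was extracted with Trizol and made into biotin-labelled cRNA (NuGEN Ovation), per the labels' protocols. The authors deposited 1 log2 intensity for each probe set of an Affymetrix array, computed with RMA, per the submitters' processing notes. No source used here gives the RMA version or says which arrays were normalized together. Array distributions were nearly equal (same-rank values differed by 0.34 at most), and their number limits the precision. Of 45101 probe sets, 64 controls and 932 naming several genes were left out, and 34945 named 1 gene in the platform annotation. For 34741 of these the gene identifier matched RefSeq (GRCm38.p6), and the rest kept the annotation's symbol. The 18193 genes were each represented by the probe set with the highest mean.

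Differences were counted at 2-fold with a floor of log2 6. limma 3.58.1 in R 4.3.3 fitted genotype and LPS additively with an intensity trend (prior degrees of freedom 5.87), and a probe set passed where its Benjamini-Hochberg adjusted p was below 0.05. Nothing says that the cultures came from separate animals, and no group has replicate arrays. The p-values of this fit rest on how far the LPS differences of the 2 genotypes depart from each other, shrunk toward the trend. They do not measure the spread between like arrays, cultures or animals. The fit was also run on data simulated with no difference between LPS responses. That run cannot check calls for genes whose LPS differences were unlike in the 2 genotypes. Python 3.11.15, numpy 2.4.6 and pandas 2.3.3 were used. Members and lists were chosen with earlier results of these data known. Named genes were all members, up to 4 genes a list with the largest effect, defining markers at background, neighbours, the nearest profiles and Kdm6b, and further list members named to complete a count were chosen after their values were seen. Promoters came from RefSeq as 250 bases before each start.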

Additional observations from a re-analysis of the deposited data

Results flagged for a closer look

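For 2 genes the LPS difference had opposite signs in the 2 genotypes. Ltf differed by -0.21 in knockout and by 0.63 in wild-type cells, and Ngp by -0.13 in knockout and by 0.19 in wild-type cells. With 1 array a group the differences between these LPS responses were not tested, and all 4 values were within 2-fold. The wild-type readings of both genes were under the floor of log2 6.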

How the results depend on the processing

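All 10 genes stayed 2-fold or more higher in knockout cells, with and without LPS, under each alternative of probe set, floor, scale and normalization, and 8 to 10 of them rose in limma. With 64 added to the linear values the unstimulated differences ran from 1.84 for Ctsg to 5.56 for S100a9. In wild-type cells 1 gene in place of 2 was past 2-fold higher with LPS at a floor of log2 8 and with 64 added, Camp being the one lost, and with 64 added 1 in place of 2 was past 2-fold for the difference between LPS responses (Camp at -0.66). With arrays quantile normalized both counts were 3, with Ctsg, at 2-fold, joining the first and Ltf, at -1.08, the second. The cause was not tested. For the LPS effect over both genotypes no alternative called a member, and the signs near 0 turned: Ngp was at -0.01 with arrays quantile normalized and at -0.05 with 64 added, and Ltf at -0.01 with 64 added. Of the background counts, genes 2-fold higher in knockout cells without LPS (863) ranged from 421 at a floor of log2 8 to 1200 with no floor, and those with LPS (842) from 382 to 1161. Genes lower with LPS ranged from 745 to 1745 in knockout and from 649 to 1446 in wild-type cells. For the difference between LPS responses, genes higher (487) ranged from 262 to 596 and genes lower (444) from 175 to 657. Probe sets that rose with genotype in limma (1236) numbered 218 with the LPS term left out and 1311 with arrays quantile normalized, and those that fell (611) 25 and 764. Those that rose with LPS (2194) numbered 244 with the genotype term left out, and those that fell (2918) 53. Without an array the additive model has no residual degree of freedom, so none was left out. No paired analysis was possible because the labels give no replicate numbers and each group has 1 array.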
